A study of Homo sapiens with 8 samples.

Results

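MALAT1, NEAT1 and NORAD, long noncoding RNAs that human cells make in large amounts, and 7 host genes of small nucleolar RNAs, GAS5, SNHG1, SNHG5, SNHG6, SNHG8, SNHG12 and SNHG16, were followed in MDA-MB-231 cells exposed to carboxymethyllysine (CML). The 10 genes were picked by symbol and all were found among the 17649 genes of the deposited expression table. These cells are a long-established line from a human breast cancer that makes no estrogen receptor, and CML, which the sample titles abbreviate as NCML, is an advanced glycation end product, formed when lysine reacts with sugars or their breakdown products. RNA-Seq was performed on 4 control cultures, which received saline, and 4 cultures that received 1 μM CML for 48 hours, all in low-glucose medium. All cultures were of 1 cell line, and the sources do not say whether cultures with the same number were grown side by side.

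Values are in CPM, the reads of a gene relative to the scaled total of its library. About 16161804 to 18954732 estimated reads stood behind a library (control median 16647446, CML median 16927629), so that 1 read was worth 0.0535 to 0.0622 CPM. The lowest value of any of the 10 genes rested on 363 estimated reads and the highest on 12133. Markers of the cell line were read first. VIM, AXL, MSN and CD44, mesenchymal and basal breast cancer genes, averaged 4068, 1186, 1381 and 832 CPM in the controls (n = 4), and PGR, FOXA1 and CDH1, genes of luminal or epithelial cells, averaged under 1 CPM. Of the same list of genes low in this line, GATA3, ERBB3 and EPCAM were at 4.96, 7.26 and 14.2 CPM and KRT8 at 213 CPM, while SPARC, listed as a marker of these cells, was near 0 at 0.237 CPM. Of genes of other cell types, PTPRC, ALB, ACTA2 and PECAM1 were at 0.475, 0.236, 1.37 and 3.41 CPM, COL1A1 at 10.5 CPM and CD68, a lysosomal protein gene of macrophages, at 172 CPM.

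These RNAs work without being translated. MALAT1 sits in nuclear speckles, bodies rich in splicing factors, and NEAT1 is the scaffold around which paraspeckles form. Both are cut at their 3′ end by the enzyme that trims transfer RNA, and the cut end folds into a triple helix in place of a poly(A) tail. NEAT1 is also made as a short form that carries a poly(A) tail. NORAD is a cytoplasmic RNA that gathers Pumilio proteins, repressors that bind a short sequence in many messenger RNAs. The host genes carry small nucleolar RNAs, guides for the chemical modification of ribosomal RNA, inside their introns. Their spliced exons code for no long protein, are often destroyed by nonsense-mediated decay during translation, and in many hosts start with a pyrimidine tract like that of ribosomal protein genes.

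The 3′ ends of MALAT1 and NEAT1 are shown because both genes had the largest differences and moved together across libraries. The lines give the last 100 bases before the cut of each RNA in the sense direction, 5′ to 3′, from the transcripts of GENCODE release 44. Capitals mark a U-rich run of the triple helix, printed with T, and the A-rich run AAAAAGCAAAA at the end. The A-rich run was taken as the last 11 bases of the long NEAT1 transcript. The marked U-rich run was defined as the reverse complement of the last 10 bases of the A-rich run. That the 2 runs are complementary therefore follows from this choice and is no result. Other U-rich letters were not searched for or marked.
NEAT1: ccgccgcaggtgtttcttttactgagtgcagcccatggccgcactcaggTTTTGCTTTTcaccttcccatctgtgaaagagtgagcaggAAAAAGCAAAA
MALAT1: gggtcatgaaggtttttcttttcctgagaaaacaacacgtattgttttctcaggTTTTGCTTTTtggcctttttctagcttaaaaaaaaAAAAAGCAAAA
These are the last bases, 22644 to 22743, of the long NEAT1 transcript and bases 8378 to 8477 of the canonical MALAT1 transcript, which is annotated to run on to base 10434. The run AAAAAGCAAAA, searched on the sense strand of the canonical transcripts, occurred in 363 of 55066 (0.659%). It was found at 1 place in NEAT1, the end from which it was taken, at 2 in MALAT1 and at none in the other 8 RNAs. The other match in MALAT1 lay upstream of the printed one, at bases 875 to 885. The 100 bases that end with it did not hold the marked U-rich run.

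NORAD is shown by its Pumilio motifs, TGTANATA on the sense strand. The canonical NORAD transcript, of 5401 bases, held 15 of them, 10 written TGTATATA, 4 TGTAAATA and 1 TGTACATA. The first site of each spelling is printed with 10 flanking bases per side and the motif in capitals.
NORAD bases 809 to 836: ggaaggcctgTGTATATAatatgaaaaa
NORAD bases 1289 to 1316: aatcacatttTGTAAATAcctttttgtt
NORAD bases 1499 to 1526: gtgtatatagTGTACATAaaggacagac
Among 1847 canonical transcripts within 10% of its length, 45.9% held the motif at all and 2 (0.108%) held as many as NORAD. NEAT1 held 6 motifs, SNHG6 held 1 and the other RNAs none.

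The start regions of 4 host genes are shown for their pyrimidine tract, a feature that many hosts share whatever small RNA they carry. Each line holds 30 bases before and 30 from the start site that RefSeq gives on GRCh38.p14, in the direction of transcription, and capitals mark a C followed by at least 4 more of C or T that begins within 10 bases of the start.
SNHG12, chr1:28581844-28581903, minus strand: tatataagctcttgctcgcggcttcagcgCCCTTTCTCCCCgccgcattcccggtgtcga
SNHG8, chr4:118278732-118278791, plus strand: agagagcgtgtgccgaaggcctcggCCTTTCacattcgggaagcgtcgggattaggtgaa
SNHG5, chr6:85678704-85678763, minus strand: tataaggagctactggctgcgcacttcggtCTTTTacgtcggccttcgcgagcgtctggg
SNHG16, chr17:76557734-76557793, plus strand: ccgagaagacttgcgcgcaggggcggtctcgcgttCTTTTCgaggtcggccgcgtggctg
Of the 6 host genes with a start region in RefSeq's table, these 4 held a tract at the listed start and GAS5 and SNHG1 did not, in a search of the transcribed strand's sense letters only. MALAT1, which is no host gene, held a tract of 11 bases at the first of its listed start sites. Its second start site and that of NORAD held none. The same search found a tract in 33.5% of 35116 start regions. Counted by gene, it found a tract at any listed start in 11 of 17 other host genes. A gene can have several start regions, so this count and the share of regions are in unlike units. A match or its lack describes letters and says nothing of translation.

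None of the 10 genes changed between control and CML cultures at the false discovery rate of 0.3 that the study used for this experiment. In limma's test, 0 of 10 passed, against 158 of 17649 genes, or 0.895%, over the whole table, and none had an unadjusted p below 0.05, against 7.66% of all genes. At a rate of 0.05, 0 genes of the table passed. In all 10 the values of the groups overlapped, while 3.78% of all genes had groups without overlap. Mean log2 values were lower with CML in 7 and higher in 3, and the median difference was −0.03 on the log2(CPM + 1) scale against 0.01 over all genes. The limma variant without a variance trend also called 0 of 10.

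**Figure D1:**
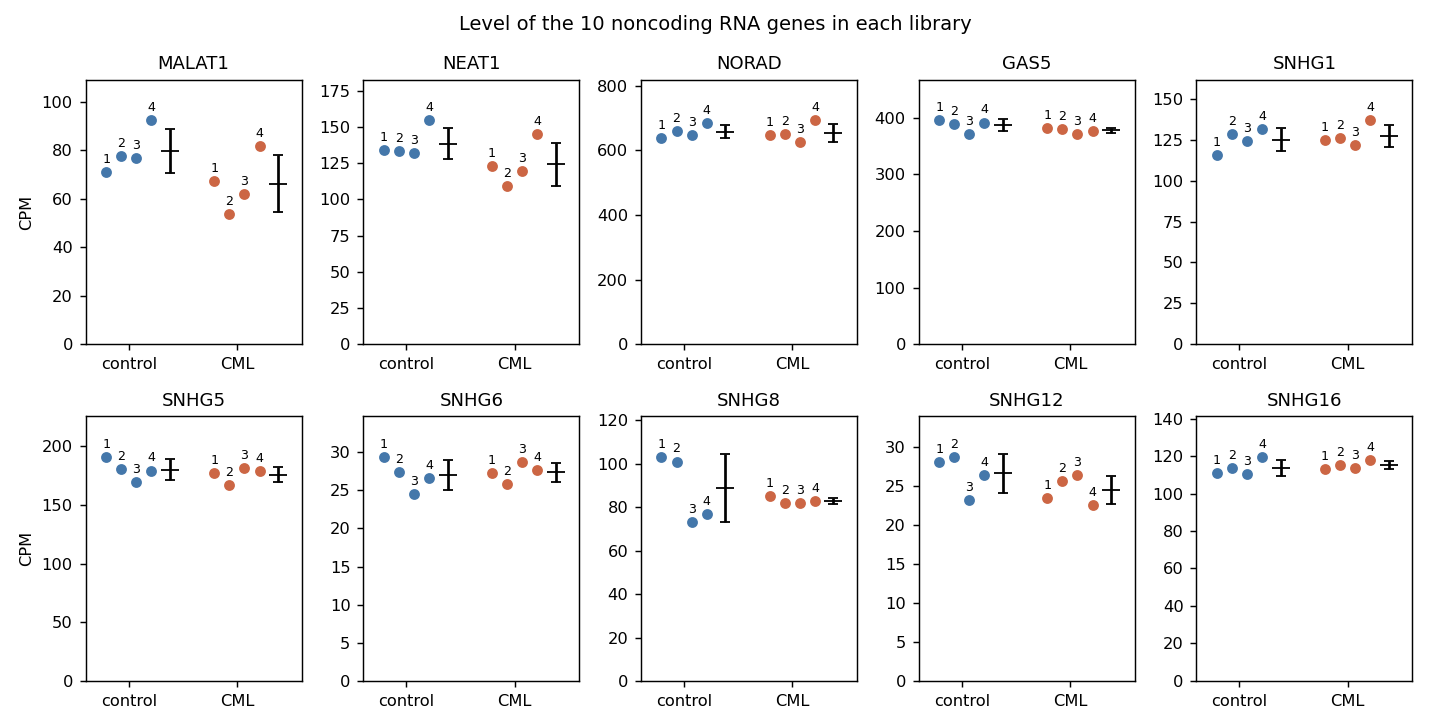
Each panel plots 1 gene, with its level in CPM on the vertical axis from 0. Points are single cultures numbered as in the labels, blue for control and orange for CML, and the black mark with bars is the mean ± SD (n = 4); MALAT1 and NEAT1 were highest in culture 4 of each group, and in all 10 panels the groups overlapped.

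MALAT1 (ENSG00000251562.8; chr11:65497738-65506516, GRCh38.p14) had the largest difference of the 10. Its 4 control libraries held 71.1, 77.7, 76.7 and 92.4 CPM, and its 4 CML libraries 67.2, 53.7, 62.1 and 81.6 CPM. Cultures 1, 2 and 3 with CML lay below every control, and CML culture 4 lay above 3 of the 4 controls. The mean was 79.5 ± 9.08 CPM in controls and 66.2 ± 11.7 CPM with CML (SD, n = 4 each), a log2 difference of −0.27 (SE 0.136, adjusted p = 0.737, limma). The 95% confidence interval of the difference ran from −33.7% to 3.64%.

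NEAT1 (ENSG00000245532.8; chr11:65422798-65445540), a neighbour of MALAT1 on chromosome 11, followed the same pattern with a smaller difference. Its control values were 134, 133, 132 and 155 CPM and its CML values 123, 109, 119 and 145 CPM. Here too CML cultures 1 to 3 lay below every control and CML culture 4 above 3 of them. The means were 138 ± 10.9 and 124 ± 15.1 CPM (SD, n = 4 each), a log2 difference of −0.16 (SE 0.0934, adjusted p = 0.794, limma) with a 95% interval from −23.2% to 4.27%. The deposited value sums both forms of NEAT1, and its recovered reads were whole numbers in 3 of 8 libraries, so that estimated and not plain counts lay behind it.

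For both RNAs the estimate leaned on single libraries. Without CML culture 2 the log2 difference was −0.18 for MALAT1 and −0.10 for NEAT1, without control culture 4 it was −0.11 for NEAT1, and without both cultures numbered 4 it was −0.30 and −0.18 (adjusted p = 0.408 and 0.338, limma), where 1.82% of all genes passed. Neither gene passed the threshold with any single library left out of the deposited values.

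**Figure D2:**
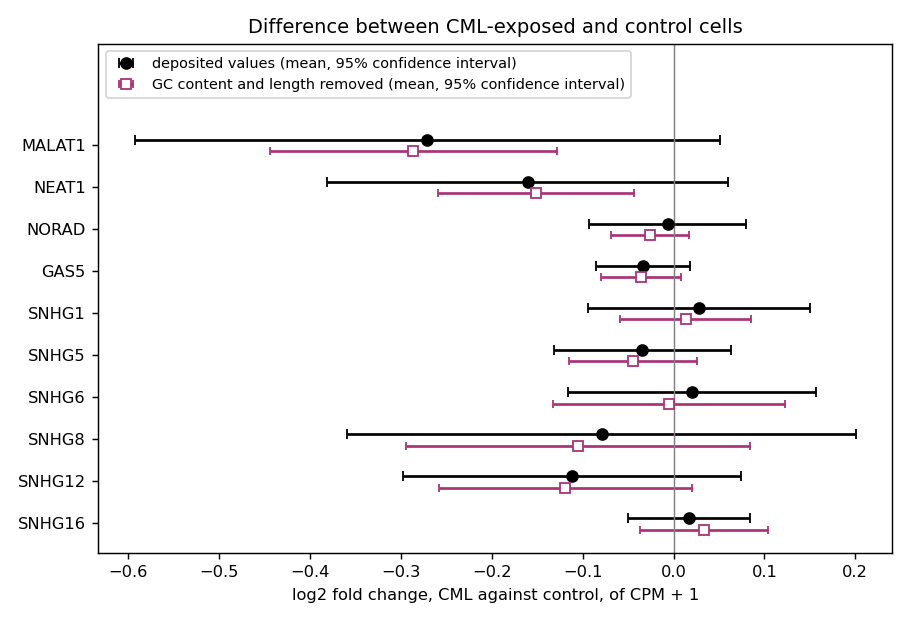
The horizontal axis is the log2 fold change, CML against control, of CPM + 1, and each row is 1 gene with its 95% confidence interval (n = 4 per group). Black circles are the deposited values, for which each interval includes 0, and open squares are values freed of each library's trend with the GC content and length of transcripts, for which the intervals of MALAT1 and NEAT1 lie below 0.

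The 13 protein-coding messages and 2 ribosomal RNAs of the mitochondrial genome moved broadly, though not in every library, with MALAT1 and NEAT1. Their sum made up 2.11% to 2.42% of CPM in controls and 1.87% to 2.23% with CML, and it was highest in control culture 4, next in CML culture 4 and lowest in CML culture 2, the same 3 positions that MALAT1 and NEAT1 held. Among control cultures 1 to 3 the orders differed. From control culture 1 to control culture 3 the sum went from 94.3% to 99.6% of the control mean, and NEAT1 from 96.7% to 95.2%. The mean sum was 22180 ± 1610 CPM in controls and 20286 ± 1623 CPM with CML (SD, n = 4 each). All 15 genes were lower with CML on average, with a median log2 difference of −0.13, and 0 of 15 passed the threshold (2 had p below 0.05). With a minimum mean of 1 CPM 2 of the 15 passed, in a fit where 141 genes passed. With each library's trends with GC content and transcript length taken out (an alternative chosen after the data were seen), 11 of 15 passed, all lower with CML. In that fit 6.74% of 12977 genes passed. MT-CO3, a subunit of cytochrome c oxidase, averaged 2107 ± 111 and 1855 ± 118 CPM (log2 difference −0.18, adjusted p = 0.489, and 0.00504 in the corrected values, limma). In RNA from whole cultures, fewer cells with an RNA and less of it per cell cannot be told apart, and the part that cell number, RNA quality or library preparation had in these values was not tested.

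**Figure D3:**
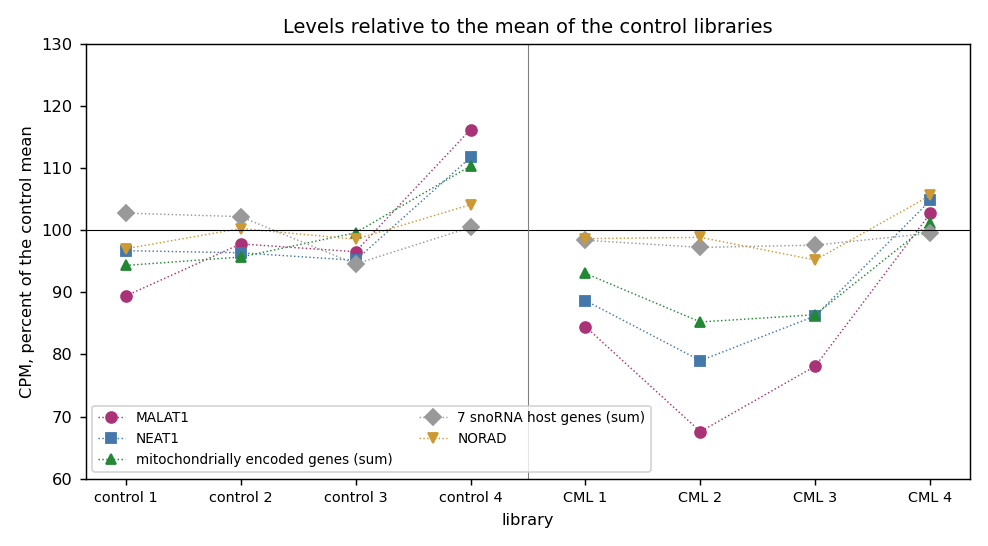
The vertical axis gives CPM as a percent of the mean of the 4 control libraries, and the horizontal axis the 8 libraries. MALAT1 ranged from 67.6% to 116%, NEAT1 from 79.0% to 112% and the sum of the mitochondrial genes from 85.2% to 110%, all with culture 4 highest in each group, while the sum of the 7 host genes stayed between 94.6% and 103% and NORAD between 95.2% and 106%.

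When each library's trend with the GC content and the length of transcripts was taken out, over 12977 genes whose mean reached 1 CPM, the differences of MALAT1 and NEAT1 kept their size and their spread within groups narrowed. This alternative was chosen after the data were seen. MALAT1 averaged 79.7 ± 5.62 CPM in controls and 65.7 ± 10.4 CPM with CML, a log2 difference of −0.29 (SE 0.0755, adjusted p = 0.075, limma). NEAT1 averaged 138 ± 6.69 and 124 ± 12.7 CPM, a difference of −0.15 (SE 0.0516, adjusted p = 0.198, limma). Both thus fell at a rate of 0.3 in these corrected values, as did 2.5% of the genes, while 6.74% passed in either direction, and the groups still overlapped for both RNAs. In the same fit 11 of the 15 mitochondrial genes passed, all lower with CML. With the GC trend alone taken out, where 5.94% of genes passed, the adjusted p was 0.088 and 0.156. The other 8 genes had adjusted p between 0.530 and 0.991. The filter on low genes alone gave MALAT1 an adjusted p of 0.543. In the corrected values MALAT1 passed whichever library was left out (log2 difference −0.38 to −0.19, adjusted p = 0.00480 to 0.225, limma), in fits where 454 to 811 of the 12977 genes passed. NEAT1, in contrast, lost its call without control culture 4 (adjusted p = 0.372, limma) or without CML culture 1, 2 or 3 (adjusted p = 0.364, 0.520 and 0.325).

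Proteins of the bodies that these RNAs organize were read from the same fit. Of 15 paraspeckle proteins 0 passed, with a median log2 difference of 0.01. NUDT21, a cleavage factor that sets the 3′ ends of messages, was at 91.0 ± 1.19 CPM in controls and 96.2 ± 2.53 CPM with CML, with no overlap of the groups and an adjusted p of 0.400, and NONO, a core paraspeckle protein, was at 406 ± 15.2 and 421 ± 2.31 CPM. Of 18 nuclear speckle proteins 0 passed, with a median of −0.01. SRSF11, a splicing factor, was at 154 ± 5.12 CPM in controls and 143 ± 2.31 CPM with CML, again without overlap (adjusted p = 0.334, and 0.0152 with GC content and length removed, limma). TRA2B, another splicing factor, was at 164 ± 6.51 and 175 ± 2.78 CPM (adjusted p = 0.489, and 0.187 with GC content and length removed). In those corrected values 4 of the 18 passed, 1 higher and 3 lower with CML, against 6.74% of all genes in that fit. Of 11 genes that act at the 3′ ends of MALAT1 and NEAT1, 0 passed, with a median of 0.06. In the corrected values 1 of the 11 passed, against the same 6.74%. POP1, a subunit of the ribonucleases P and MRP, was at 7.94 ± 0.874 and 9.37 ± 0.480 CPM without overlap (adjusted p = 0.574, limma).

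Of 22 genes listed as signs of RNA without a poly(A) tail, 7 were in the table and 1 passed the threshold, higher with CML. HIST1H2AC, a histone H2A gene, was at 21.0 ± 0.684 CPM in controls and 23.5 ± 0.618 CPM with CML (SD, n = 4 each), a log2 difference of 0.16 (SE 0.0318, adjusted p = 0.262, limma) with no overlap of the groups. It lost the call in several other settings and moved in the opposite direction to MALAT1. Of the 11 gene lists that were read beside the 10 RNAs, with 186 genes in all, this was the 1 gene that passed. That is 0.538%, below the 0.895% of all genes that passed.

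NORAD (ENSG00000260032.2; chr20:36045618-36050960) had the highest CPM of the 10 and hardly differed between groups. Its control libraries held 637, 658, 647 and 684 CPM and its CML libraries 648, 649, 625 and 693 CPM. The values interleaved, with culture 4 again the highest of each group. The means were 657 ± 20.1 and 654 ± 28.5 CPM (SD, n = 4 each), and the 95% interval of the difference ran from −6.25% to 5.70% (adjusted p = 1, limma). Its recovered reads were whole in 0 of 8 libraries. Of 8 Pumilio genes and other NORAD partners 0 passed, with a median log2 difference of 0.05. KHDRBS1, which encodes the RNA-binding protein SAM68, was at 137 ± 5.59 CPM in controls and 146 ± 2.89 CPM with CML (adjusted p = 0.489, and 0.129 in the corrected values, limma). It was the 1 of 8 that passed in the corrected values, where 6.74% of genes did. NANOS1, a partner of Pumilio proteins, was at 1.15 ± 0.125 and 0.851 ± 0.195 CPM (log2 difference −0.22, adjusted p = 0.574), and CNOT7, a deadenylase of the complex that Pumilio proteins recruit, was at 79.8 ± 2.30 and 82.9 ± 1.37 CPM (adjusted p = 0.656).

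The 7 host genes together held 948 ± 35.5 CPM in controls and 931 ± 9.59 CPM with CML. Mean log2 values were lower with CML in 4 of them and higher in 3, the median difference was −0.03, and 0 of 7 passed. Every host's 95% interval lay between −22.0% and 15.0%.

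GAS5 (ENSG00000234741.8; chr1:173863901-173869045), which hosts 11 small nucleolar RNAs and is known to accumulate when growth stops and translation slows, had the tightest interval. It was at 396, 388, 371 and 392 CPM in controls and at 382, 380, 372 and 377 CPM with CML. Control culture 3 lay below all CML cultures and the other controls lay above them. The means were 387 ± 10.7 and 378 ± 4.66 CPM, and the interval ran from −5.77% to 1.27% (adjusted p = 0.831, limma).

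SNHG1 (ENSG00000255717.6; chr11:62851978-62855885), host of 8 small nucleolar RNAs, was at 116, 129, 124 and 132 CPM in controls and at 125, 126, 122 and 137 CPM with CML. The interval of its difference ran from −6.34% to 10.97%. SNHG5 (ENSG00000203875.11; chr6:85677007-85678733), host of SNORD50A and SNORD50B, was at 191, 181, 169 and 179 CPM in controls and 177, 167, 181 and 179 CPM with CML, with an interval from −8.74% to 4.49%. SNHG16 (ENSG00000163597.14; chr17:76557764-76565348), host of 3, was at 111, 114, 110 and 120 CPM in controls and 113, 115, 114 and 118 CPM with CML. Its log2 difference was 0.02, turned to −0.0026 when libraries were centred on their median and to −0.0025 after quantile normalization, and had an interval from −3.40% to 6.002%. With single libraries left out it ran from 0.0032 to 0.042. In each of these hosts the values of the groups interleaved, and the adjusted p was 0.940 to 0.987.

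SNHG8 (ENSG00000269893.7; chr4:118278762-118279823), host of SNORA24, stood out by its spread and not by its mean. The control libraries held 103, 101, 73.4 and 77.1 CPM and the CML libraries 84.98, 82.0, 82.2 and 82.8 CPM. Controls 1 and 2 lay above every CML culture and controls 3 and 4 below every one. The coefficient of variation (CV, the SD as a percent of the mean) was 17.6% among controls and 1.67% with CML, and the difference in spread was not tested. The means were 88.7 ± 15.7 and 83.0 ± 1.39 CPM with an interval of the difference from −22.0% to 15.0% (adjusted p = 0.968, limma). Its log2 difference of −0.08 ran from −0.16 to −0.0010 with single libraries left out.

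SNHG6 (ENSG00000245910.8; chromosome 8), host of SNORD87, and SNHG12 (ENSG00000197989.14; chr1:28578538-28582983), host of 4, had the lowest CPM of the 10. SNHG6 was at 29.4, 27.4, 24.6 and 26.7 CPM in controls and 27.3, 25.8, 28.7 and 27.7 CPM with CML, with an interval from −7.74% to 11.5%. SNHG12 was at 28.0, 28.7, 23.2 and 26.4 CPM in controls and 23.4, 25.6, 26.4 and 22.6 CPM with CML, with an interval from −18.6% to 5.31% (adjusted p = 0.860, limma). For SNHG12, CML culture 4 lay below every control and the other 3 within the control range.

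Other genes of the same pathway gave no call either in the same limma fit. Of 20 further noncoding host genes 0 passed, 15 were lower and 4 higher with CML, and the median log2 difference was −0.08, below the 0.01 of all genes. SNHG29, the host with the smallest p in that list, was at 599 ± 19.7 and 574 ± 6.45 CPM (log2 difference −0.06, adjusted p = 0.626, limma). Of 32 protein-coding host genes 0 passed, with a median of 0.00. Of 17 proteins of the small nucleolar ribonucleoproteins 0 passed, with a median of 0.03, and DKC1, the pseudouridine synthase, was at 161 ± 4.70 and 164 ± 2.17 CPM. Of 18 factors of nonsense-mediated decay 0 passed, with a median of 0.01, and EIF4A3, a core of the exon junction complex, was at 99.2 ± 2.32 and 102 ± 1.38 CPM. Of 30 other long noncoding RNAs 0 passed, with a median of −0.02, and MIR22HG, the host transcript of miR-22, was at 71.7 ± 3.70 and 66.9 ± 3.59 CPM. With GC content and length removed 1 of 22 such RNAs passed, lower with CML, where 6.74% of genes passed. A call, lower with CML, also came for 1 of 30 with the replicate block, where 189 genes passed. With a minimum mean of 1 CPM it was 1 of 23, where 141 genes passed.

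How far the cultures of 1 group differed depended on the gene. Counting error alone, from the estimated reads, would give a CV of 0.948% for NORAD to 4.81% for SNHG12. The CV pooled over both groups was 14.9% for MALAT1, 5.20 times its counting error, and 10.2% for NEAT1, 4.81 times. It was 4.77 times for SNHG8 and 3.98 times for NORAD, where counting error is smallest. For SNHG8 the excess lay in the controls, at a CV of 17.6%. Its CV with CML, 1.67%, was below its counting error of 2.63%. SNHG16 and SNHG6 varied least beyond counting, at 1.299 and 1.31 times, and GAS5 and SNHG12 both at 1.73 times.

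**Figure D4:**
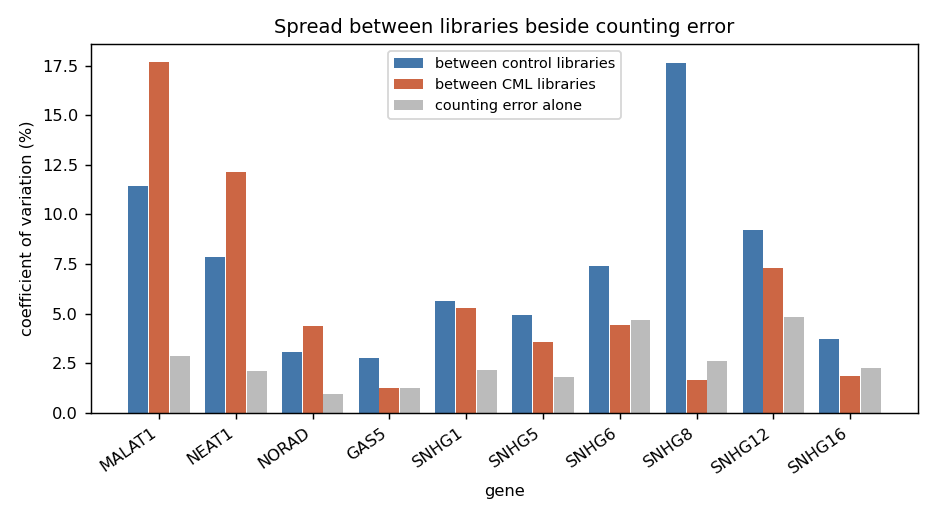
Bars start at 0 and give the coefficient of variation in percent for each gene, blue between the 4 control libraries, orange between the 4 CML libraries and grey for counting error alone. MALAT1, NEAT1 and NORAD spread more among CML libraries than among controls, and SNHG8 reached 17.6% among controls against 1.67% with CML.

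Across the 8 libraries MALAT1 and NEAT1 had the highest Pearson's r of all 45 pairs, while NORAD and SNHG1 had the highest Spearman's rho. Pearson's r of the MALAT1 and NEAT1 log2(CPM + 1) values was 0.976 (exact permutation p = 0.00015, adjusted over 45 pairs 0.00670) and their rho was 0.929 (exact permutation p = 0.00223, adjusted 0.0502). Without control culture 4 and CML culture 2, the farthest from the MALAT1 median, r was 0.918 (exact permutation p = 0.00972, adjusted 0.250). The relation thus kept its size over 6 libraries. So few libraries have too few orderings for any pair to pass alone after adjustment over 45 pairs, so this adjusted p cannot decide. Within the controls r was 0.912 and within the CML libraries 0.9902. With GC content and length removed r was 0.953.

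NORAD and SNHG1 came next by r, at 0.889 (exact permutation p = 0.00327, adjusted 0.0737), with rho 0.976 (exact permutation p = 0.000397, adjusted 0.0179). Without control culture 4 and CML culture 4 the r fell to 0.691 (exact permutation p = 0.129), so that part of the relation rested on those libraries. SNHG5 and SNHG6 had r of 0.887 (exact permutation p = 0.00645, adjusted 0.0967) and rho of 0.857 (exact permutation p = 0.0107, adjusted 0.161), and without control culture 1 and CML culture 2 r was 0.905. On deviations from the group means, permuted within groups, both pairs passed (r = 0.925 and 0.984, each exact permutation p = 0.00174 and adjusted 0.0391), and MALAT1 with NEAT1 did not (r = 0.967, exact permutation p = 0.00868, adjusted 0.130). Orderings within groups are so few that both passing pairs stood at the smallest p possible, and neither would have passed alone. The r of MALAT1 with NEAT1 lay between theirs, so these calls do not rank the pairs. The median r over the 45 pairs was 0.329, the lowest was −0.413 for SNHG1 with SNHG12, and these values share library depth and scaling.

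**Figure D5:**
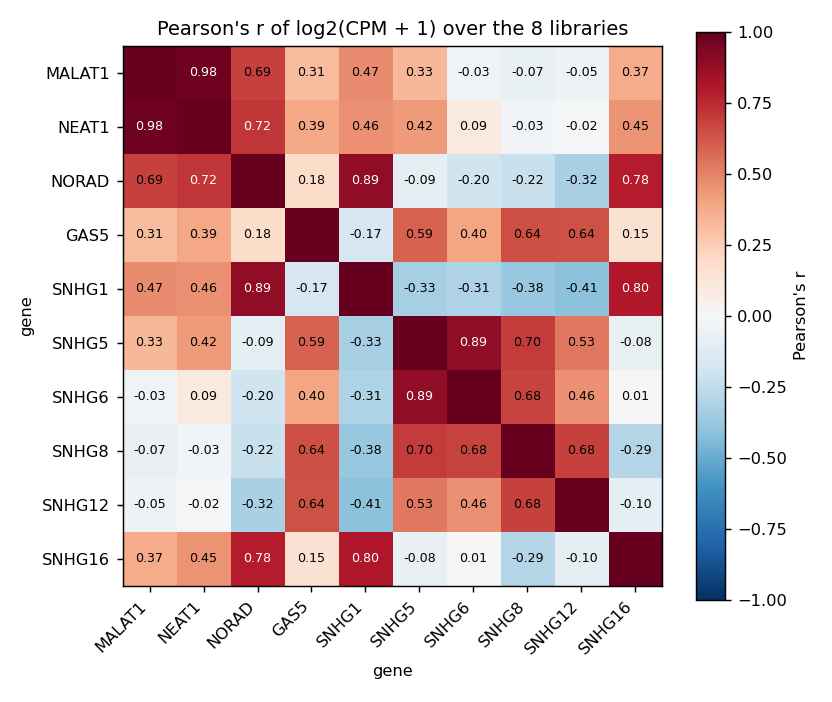
Each cell is Pearson's r of log2(CPM + 1) between 2 of the 10 genes over the 8 libraries, red for positive and blue for negative values. MALAT1 with NEAT1 (0.98), NORAD with SNHG1 (0.89) and SNHG5 with SNHG6 (0.89) are the strongest cells, and SNHG5, SNHG6, SNHG8 and SNHG12 have positive values with each other and negative ones with SNHG1.

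Among the 9410 genes whose mean reached 10 CPM, those whose values over the 8 libraries were most like MALAT1's were NABP1, a single-strand DNA-binding protein (r = 0.983), NEAT1 itself (0.976) and RBBP4, a histone chaperone (0.970). For NEAT1 they were MT-ND2, a mitochondrially encoded subunit of complex I (0.979), MALAT1 (0.976) and LINC00888 (0.957). For NORAD they were SMG1, a kinase of nonsense-mediated decay (0.986), C16orf72 (0.969) and RESF1 (0.965), and for GAS5 they were DIPK1A (0.930), LINC00205 (0.910) and PABPN1, the nuclear poly(A)-binding protein (0.906). These r describe 8 libraries that share their scaling, and each is the top of a search through those 9410 genes.

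Levels can be compared between genes only per length of transcript. Per kilobase of the canonical GENCODE transcript the controls held 504 ± 13.95 CPM of GAS5, 228 ± 8.52 of SNHG16, 137 ± 6.73 of SNHG5, 122 ± 3.72 of NORAD and 108 ± 6.08 of SNHG1. SNHG6, SNHG8 and SNHG12 followed at 14.8 ± 1.10, 14.4 ± 2.54 and 14.2 ± 1.31 CPM per kilobase and overlapped each other. MALAT1, at 7.62 ± 0.871, and NEAT1, at 6.09 ± 0.478 CPM per kilobase, were the lowest of the 10. MALAT1's mean over all libraries, 72.8 CPM, placed it 3210th among the 17649 genes, NEAT1 was 1589th and NORAD 186th. The order depends on the length chosen for each gene. The canonical transcript of SNHG8, of 6166 bases, is longer than the 1062 bases that RefSeq gives the gene, and NEAT1's 22743 bases are those of its long form, while the form behind the reads is not known.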

How the data were processed

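RNA from 4 control and 4 CML-exposed cultures of MDA-MB-231 cells was isolated with a column kit and sequenced. Per the labels, both a NextSeq and a HiSeq instrument are named, and edgeR and hg38 appear in the submitters' processing notes. The paper's methods for the CML-exposed cells name a HiSeq. For the tumors of the study the methods describe a stranded mRNA kit and Tophat alignment to hg19, which differs from the hg38 of the labels, and they do not say whether these steps cover the CML libraries. The aligner, counter, annotation and poly(A) selection of the CML libraries are therefore taken as not given in the sources used here. A poly(A) selection would catch RNAs without a tail, such as MALAT1 and the long form of NEAT1, only in part, and its part in the values was not tested.

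The authors deposited CPM values, 1 column per library and 17681 rows. Columns summed to 986730 to 1014124, as after scaling by composition factors. Dividing by the value of 1 read gave whole reads for 85.1% to 86.1% of values (tolerance 0.02), so no count test was run. Rows with 1 symbol were averaged (32 symbols had more than 1 row), giving 17649 genes. From these, log2(CPM + 1) was compared by limma 3.58.1 in R 4.3.3 with a variance trend, no covariates, Benjamini-Hochberg adjustment over all genes and a false discovery rate of 0.3. p-values measure the spread between these cultures, which may be technical. Intervals are on the log2(CPM + 1) scale, written as percent. Relations were tested by 2-sided exact permutation. Alternatives were a replicate block, centring, quantile normalization, no trend, separate rows, a pseudocount of 0.1, genes with at least 1 CPM, each library left out, and, added after seeing the data, removal of GC content and length by splines with 5 degrees of freedom each. Transcript lengths and GC content were those of GENCODE canonical transcripts, matched for 99.1% of genes, and coordinates and start regions came from RefSeq on GRCh38.p14. NEAT1 and SNHG6 were not in the table of start regions.

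The 10 genes and all lists were chosen with earlier results of these data known. All 10 are described. Of each further list the genes past the rate of 0.3 are named, or else some of the 3 with the smallest p and a mean of at least 1 CPM, leaving out Y-linked and X-inactivation RNAs. Figures were drawn with matplotlib 3.10.9.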

Additional observations from a re-analysis of the deposited data

Results flagged for a closer look

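NEAT1 in control culture 4, at 155 CPM, lay far above the other 3 control cultures, which held 132 to 134 CPM. The gap was 0.906 of the group's whole range, above Dixon's 95% critical value for 4 samples. It was the only such value among 24 groups of 4 cultures examined, where chance gives about 1.2. Control culture 4 also held the highest MALAT1 and mitochondrial values of its group, and their part in this value was not tested.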

How the results depend on the processing

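The count of 158 genes past the rate of 0.3 was 73 with libraries centred on their median, 20 to 690 with libraries left out, 875 with GC content and length removed and 771 with GC content removed. Every left-out library moved it by over 1.5 times. Of the 10 genes, 0 passed in the other settings and 2, MALAT1 and NEAT1, with GC content and length removed or GC content alone removed. With GC content and length removed and a library left out, 1 to 3 passed, the third being SNHG12 without control culture 3. In those fits 454 to 811 of 12977 genes passed. The 1 gene past the rate in the further lists became 2 with the replicate block, 3 with a minimum of 1 CPM, 0 after centring, 2 after quantile normalization, 19 with GC content and length removed, 17 with GC content removed, 2 with length removed and 0 to 9 with libraries left out. With libraries left out the log2 difference of NORAD ran from −0.035 to 0.015 (above 0 without control culture 4 or CML culture 3), that of SNHG1 from −0.0093 to 0.053 (below 0 without control culture 1 or CML culture 4) and that of SNHG6 from −0.023 to 0.061 (below 0 without culture 3 of either group). SNHG6 was also at −0.0046 with GC content and length removed and at −0.00058 with GC content removed, and SNHG16 at −0.0026 after centring and −0.0025 after quantile normalization. Of the 45 pairs, 1 passed at 0.05, 0 passed without the 2 farthest libraries and 2 on deviations from group means. Without those libraries, and in permutations within groups, the orderings were too few for any pair to pass alone. The cause was not tested for any of these changes. Same-numbered cultures deviated together with correlations of 0.199, −0.0303, −0.0645 and 0.334 (numbers 1 to 4), and since the sources do not say that same numbers share a batch, they were not used as pairs. With the replicate block 189 genes and 0 of the 10 passed, with adjusted p of 0.463 for MALAT1 and 0.393 for NEAT1.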
